A study of Gallus gallus with 6 samples.

Results

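The genes described here encode the proteasome, its regulatory particles, its activators and the chaperones that help to build it. They were chosen by name: a probe set was taken when the only gene symbol in its annotation began with PSMA, PSMB, PSMC, PSMD, PSME, PSMF or PSMG. The rule found 58 probe sets of 37 genes, out of 13009 genes annotated on the array, and each gene was represented by the probe set with the highest mean over the 6 arrays. Of the 37 genes, 7 encode alpha and 6 beta subunits of the core, 5 are ATPases and 8 are non-ATPase subunits of the regulatory particle, 3 are activators or inhibitors and 7 are assembly chaperones. PSMC3IP, a meiotic recombination factor, shares the prefix alone. It was kept apart from these roles but is counted among the 37. No probe set carried as its only symbol PSMB8, PSMB9 or PSMB10, names of inducible beta subunits. The same held for PSMB6, PSMC4, PSMD8, PSMD11, PSME1 and PSME2, so none of these could be analysed. Whether the chick has a gene of each name was not examined. A further 6 probe sets that carried a second symbol beside a name that fits the rule were left out, among them those of PSMD4, a ubiquitin receptor.

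The tissue was the chorioallantoic membrane (CAM), the vascularised membrane of the chick egg that serves gas exchange. Embryos of brown leghorn eggs were kept in Petri dishes, the CAM was cut superficially with a scalpel, the epithelium was scraped away and the area was covered with a nylon grid. Wound tissue and uninjured control CAM were collected 6 days later from the same 3 eggs, so that the controls came from embryos that also carried a wound, and each sample was hybridized to 1 Affymetrix chicken GeneChip. The study describes wound and control as being of the same developmental stage. No treatment, transgene or allele other than the injury and its grid was named. The grid lay on the wound area alone, so its part cannot be told apart from that of the injury. Levels are given as log2 intensities from robust multi-array averaging (RMA), so that a difference of 1 corresponds to a fold of 2. An intensity also depends on how well a probe set binds its target, so the order of probe sets by brightness, used below to group them, is no order of transcript abundance.

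The proteasome degrades proteins that have been tagged with ubiquitin, together with damaged and oxidised ones. Its core is a barrel of stacked rings, in which the outer alpha rings form a gate and the inner beta rings hold the cutting sites. A regulatory particle sits on the gate, binds and removes the ubiquitin chain and uses ATP to unfold the substrate and feed it in. In healing tissue the proteasome is known for the turnover of cell cycle regulators, for the activation of NF-kappaB and for cutting the peptides that are shown to T cells.

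Most proteasome genes lay higher in wound than in control tissue, and the alpha subunits of the core had the highest median of the roles. The log2 difference was above 0 for 35 of the 37 genes, with a median of 0.39 (fold 1.31), against a median of 0.01 over all genes, of which 57% were above 0. By limma, which fits a linear model to every probe set and moderates its variance by that of the others, with Benjamini-Hochberg adjustment over all 38439 probe sets, 6 genes were up-regulated, namely PSMA1, PSMA4, PSMB2, PSMB7, PSMC1 and PSMC5, and 0 were down-regulated. The same test called 2.04% of all probe sets and 3.92% of all genes higher in wound, and 0.304% of the probe sets and 0.392% of the genes lower. With the replicate number as a block, which pairs wound with control, the 6 calls were lost and 0 of the 37 passed. That blocked fit called 0.702% of all probe sets higher in wound. Without the block, at an unadjusted p under 0.05 by limma, 22 of the 37 were higher and 0 lower, against 17.5% and 5.93% of all genes. All differences were modest, and 0 of the 37 genes changed by a fold of more than 2, as 0.541% of all probe sets did upwards with an adjusted p under 0.05. All 3 wound arrays lay above all 3 control arrays for 23 of the 37 genes, where 20.8% of all genes and 13.7% of all probe sets did so, and 0 showed the opposite order, which 7.81% of all genes did.

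**Figure D1:**
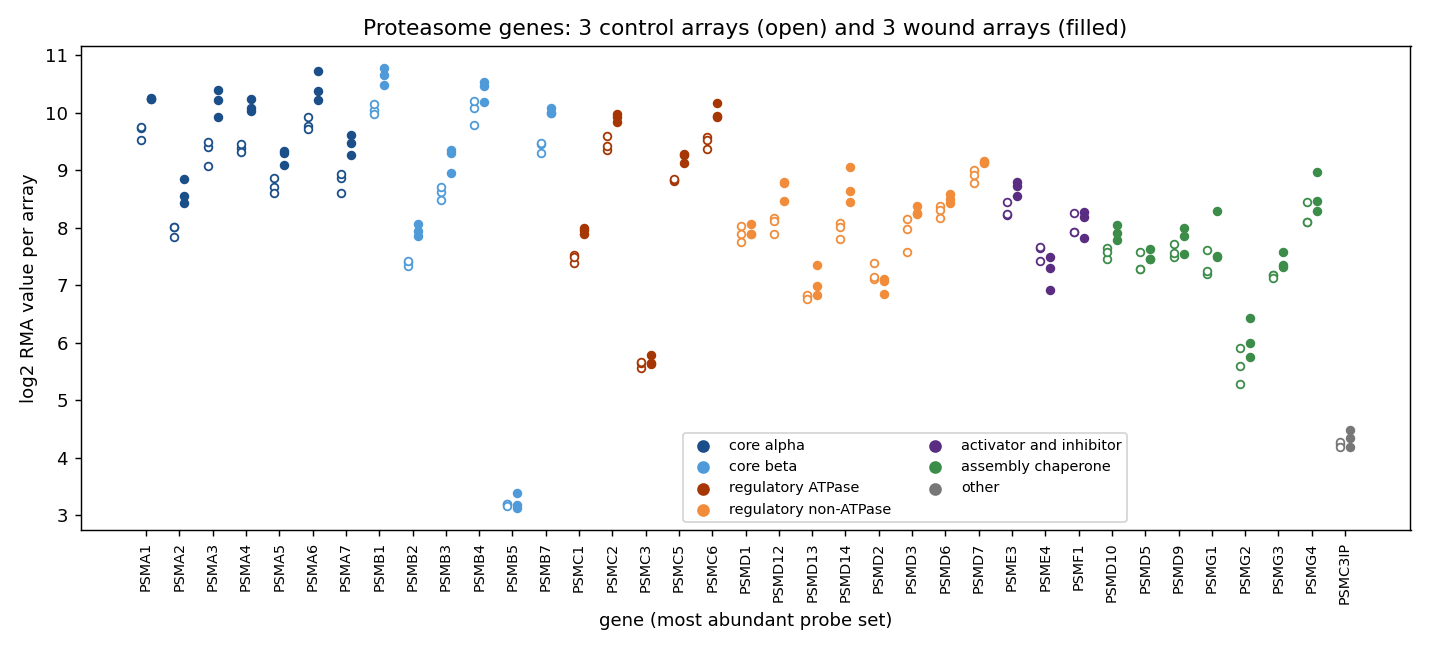
Level of each of the 37 genes in each array, as log2 RMA values on the vertical axis, with the genes on the horizontal axis coloured by role. Open circles are the 3 control and filled circles the 3 wound arrays, and the filled circles lie clear above the open ones for all 7 alpha subunits. Of all genes at a mean log2 level of 8 or more, 50.6% have all wounds above all controls.

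Genes with bright probe sets as a whole also lay higher in the wound arrays, and this sets the background for the proteasome genes, most of which are bright. Among the 1653 genes with a mean log2 level of 8 or more, the median difference was 0.31 (fold 1.24), 78.8% lay above 0, 50.6% had all wounds above all controls, 48.5% were higher at an unadjusted p under 0.05 and 13.4% were called higher. The 22 proteasome genes at such a level had a median of 0.55, all 22 lay above 0, 19 had all wounds above all controls, 18 were higher at an unadjusted p under 0.05 and 4 were called. The share of bright proteasome genes called by the test was thus close to that of bright genes in general, while more of them had separate groups. With the level held in narrower ranges, 8 of 10 proteasome genes between 8 and 9, 8 of 9 between 9 and 10 and 3 of 3 above 10 exceeded the median of all genes of their range. Those medians were 0.27, 0.37 and 0.33, against 0.46, 0.57 and 0.58 for the proteasome genes. Between 6 and 8, where most chaperones and some regulatory subunits lie, 7 of 11 exceeded the median of 0.15.

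**Figure D2:**
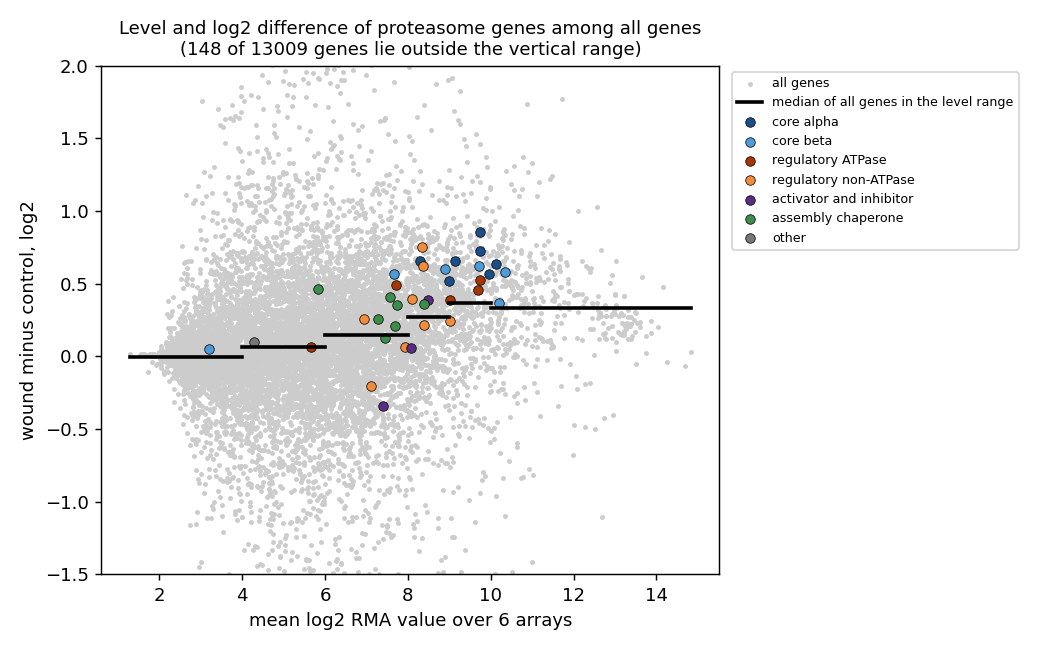
Log2 difference of wound minus control (vertical axis) against the mean log2 level over the 6 arrays (horizontal axis) for all 13009 genes in grey and the proteasome genes in colour by role; 148 genes lie outside the vertical range. Black lines are medians of all genes in each level range, which climb to 0.37 between 9 and 10, and 8 of the 9 proteasome genes in that range lie above the line.

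The alpha subunits, which form the gate of the core, showed the highest median of the roles, 0.65 on the log2 scale (fold 1.57), with a range from 0.52 to 0.85. All 7 had every wound above every control, and 2 passed the test. Their mean levels ran from 8.28 to 10.13. Among all genes at level 8 or more, 50.6% had that order and 13.4% were called higher. PSMA4 stood at 9.39, 9.32 and 9.45 in controls 1 to 3 and at 10.02, 10.08 and 10.23 in wounds 1 to 3. The groups were separated by far more than their own spread, and the difference was 0.73 ± 0.068 (SE, n = 3 per group) with an adjusted p of 0.0225 by limma. PSMA1 measured 9.74, 9.75 and 9.53 in the controls and 10.23, 10.23 and 10.25 in the wounds. The wound values of PSMA1 were almost equal, and it rose by 0.57 ± 0.067 (limma, adjusted p = 0.0334).

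PSMA3 had the largest log2 difference of the 37 genes, 0.85 ± 0.166, or a fold of 1.81. Its levels were 9.40, 9.48 and 9.08 in the controls and 10.39, 10.21 and 9.93 in the wounds. The groups did not overlap, but both spread widely and the adjusted p by limma was 0.0908. PSMA6, with the brightest probe set among the alpha genes, gave 9.77, 9.93 and 9.72 in the controls against 10.38, 10.72 and 10.23 in the wounds. These groups were likewise separate, with a difference of 0.64 and an adjusted p of 0.125 by limma. The remaining PSMA2, PSMA5 and PSMA7 differed by 0.65, 0.52 and 0.65, and did not pass the test.

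The beta subunits form the inner rings of the core, where PSMB5 and PSMB7 carry cutting sites with chymotrypsin-like and trypsin-like activity. Their median log2 difference was 0.57 (fold 1.49), 4 of 6 had separate groups and 2 passed the test. All wounds lay above all controls for 20.8% of all genes and 50.6% of those at level 8 or more. The test called 3.92% and 13.4% of these higher. PSMB7 read 9.29, 9.46 and 9.47 in the controls and 10.08, 9.99 and 9.999 in the wounds. All wounds exceeded all controls by at least the spread of either group, and the rise of 0.62 ± 0.059 had an adjusted p of 0.0229 by limma. A second PSMB7 probe set, at a level of 3.26 close to the median of all probe sets of 3.05, differed by -0.44 with an adjusted p of 0.505 by limma. PSMB2, a subunit with no cutting site, was at 7.41, 7.33 and 7.43 in controls and at 8.07, 7.94 and 7.85 in wounds. It rose by 0.56 ± 0.064, with separate groups and an adjusted p of 0.0308 by limma.

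PSMB1, also without a cutting site, had the brightest probe set of the beta genes, with 10.04, 10.14 and 9.97 in the controls and 10.78, 10.66 and 10.47 in the wounds. The groups were separate and the difference of 0.58 had an adjusted p of 0.0594 by limma, just outside the threshold. PSMB3 and PSMB4 differed by 0.60 and 0.37, and wound 3 of PSMB4 lay at the level of the highest control. PSMB5 gave 3.19, 3.20 and 3.16 in the controls and 3.38, 3.18 and 3.13 in the wounds. Both groups overlapped at a signal near the array median, and a second probe set, also near that median, differed by -0.18.

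The ATPases form the ring that unfolds substrates, and the 5 measured here had a median log2 difference of 0.46 (fold 1.37). Of these, 4 had separate groups and 2 passed the test, where 20.8% of all genes had all wounds above all controls and 3.92% were called higher. At level 8 or more these shares were 50.6% and 13.4%. PSMC1 was at 7.39, 7.52 and 7.48 in the controls and at 8.002, 7.90 and 7.96 in the wounds. It rose by 0.49 ± 0.045, and the gap between the groups was wider than either group (limma, adjusted p = 0.0220). PSMC5 showed control levels of 8.82, 8.83 and 8.84 and wound levels of 9.27, 9.13 and 9.26. Its controls were nearly identical, and the rise of 0.39 ± 0.045 had an adjusted p of 0.0322 by limma.

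PSMC6, with the brightest ATPase probe set, gave 9.36, 9.57 and 9.52 in the controls and 10.16, 9.93 and 9.93 in the wounds. Wound 1 was the highest and the groups did not overlap, with a difference of 0.52 and an adjusted p of 0.0722 by limma. PSMC2 differed by 0.46, also with separate groups. PSMC3 was the exception among the ATPases, with overlapping groups around 5.65 and a difference of 0.06.

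The non-ATPase subunits, which scaffold the regulatory particle and handle the ubiquitin chain, had a median log2 difference of 0.25 (fold 1.19). That is below the 0.31 of genes at level 8 or more, but some of these subunits were dimmer. All genes had medians of 0.15 between levels 6 and 8 and 0.27 between 8 and 9. The spread among the 8 subunits ran from -0.20 to 0.75. Of them, 5 had separate groups and 0 passed the test, with 4 higher and 0 lower at an unadjusted p under 0.05. Among genes at level 8 or more, 50.6% had all wounds above all controls and 48.5% were higher at that p. The shares of all genes were 20.8% and 17.5%, with 5.93% lower. PSMD14, the enzyme that cuts the ubiquitin chain from the substrate, measured 8.08, 8.02 and 7.79 in the controls and 9.06, 8.64 and 8.44 in the wounds. Its difference of 0.75 ± 0.184 (fold 1.68) was the second highest of all 37 genes, the groups were separate, and the wide spread of the wounds left an adjusted p of 0.144 by limma. PSMD12, a lid subunit, differed by 0.62 with separate groups.

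PSMD7, the partner of PSMD14 in the lid, had the brightest probe set of this role, with 9.01, 8.91 and 8.78 in the controls and 9.13, 9.15 and 9.15 in the wounds. The groups were separate but close, and the difference was 0.24 with an adjusted p of 0.149 by limma, and -0.054 after quantile normalization. A second PSMD7 probe set near the array median differed by -0.02. PSMD2, a large scaffold of the base that docks ubiquitin carriers, gave 7.11, 7.38 and 7.15 in the controls and 6.85, 7.07 and 7.11 in the wounds. Its groups overlapped, the difference was -0.20 (limma, adjusted p = 0.536), and a second probe set differed by 0.39 with separate groups (limma, adjusted p = 0.145), so the direction of PSMD2 was not settled by the array. PSMD1, PSMD3, PSMD6 and PSMD13 differed by 0.07, 0.39, 0.22 and 0.26, and did not pass the test.

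The activators PSME3 and PSME4 and the inhibitor PSMF1 differed by 0.39, -0.34 and 0.06, and 0 of 3 passed the test. Their median of 0.06 turned to -0.13 after quantile normalization. PSME3 encodes an activator of the nucleus that opens the gate without ubiquitin. Its probe set gave 8.22, 8.44 and 8.24 in the controls and 8.72, 8.80 and 8.54 in the wounds, separate groups with a difference of 0.39 and an adjusted p of 0.146 by limma. A second PSME3 probe set read 6.89, 6.78 and 6.80 against 7.60, 7.63 and 7.47 and rose by 0.75 ± 0.054 (limma, adjusted p = 0.0160), a call lost with the replicate block (blocked adjusted p = 0.0524). The third PSME3 probe set, at a level of 2.57 below the array median, had overlapping groups and a difference of 0.10.

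PSME4, the other activator, which in mammals acts on acetylated histones, was at 7.42, 7.64 and 7.66 in the controls and at 6.91, 7.49 and 7.30 in the wounds. The groups overlapped, each wound lay below the control of its number, and the difference of -0.34 had an adjusted p of 0.516 by limma. The other PSME4 probe sets above the array median differed by -0.08 and -0.36. PSMF1, known as an inhibitor of the core, read 7.92, 7.92 and 8.26 in the controls and 7.81, 8.19 and 8.27 in the wounds. These values overlapped throughout, with a difference of 0.06 (limma, adjusted p = 0.987).

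**Figure D3:**
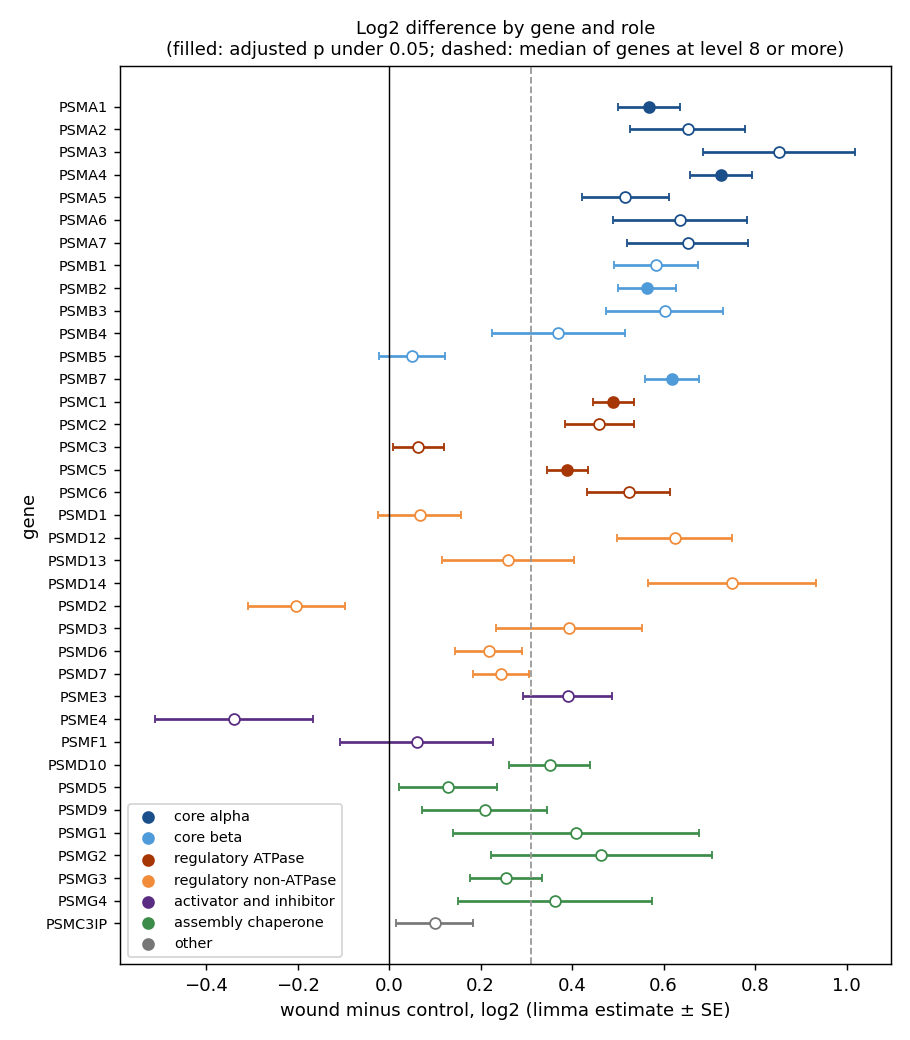
Log2 difference of wound minus control (horizontal axis, limma estimate ± SE, 3 arrays per group) for each of the 37 genes, coloured by role; filled points have an adjusted p under 0.05. The dashed line is the median of genes at a level of 8 or more, 0.31, and the 7 alpha subunits all lie to its right, whereas PSME4 and PSMD2 lie left of 0.

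The 7 assembly chaperones had a median log2 difference of 0.35 (fold 1.28) and a range from 0.13 to 0.46. All 7 were above 0, 2 had separate groups, and 0 passed the test, with 2 higher at an unadjusted p under 0.05. For comparison, 57% of all genes lay above 0, 20.8% had all wounds above all controls and 17.5% were higher at that p. PSMG1 and PSMG2, which pair to start the alpha ring, differed by 0.41 and 0.46, and PSMG3, which pairs with PSMG4, by 0.25. PSMG4 gave 8.09, 8.10 and 8.44 in the controls and 8.46, 8.29 and 8.96 in the wounds. The groups overlapped, the difference was 0.36 (limma, adjusted p = 0.600), and a second probe set differed by -0.13. PSMD5, PSMD9 and PSMD10, chaperones of the ATPase ring, differed by 0.13, 0.21 and 0.35. PSMC3IP, which is no part of the proteasome, differed by 0.10.

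Set side by side, the 13 core genes had a median log2 difference of 0.60 and the 13 regulatory genes one of 0.39. The core genes were also brighter, with a median level of 9.72 against 8.34. The median difference of all genes was 0.27 at levels from 8 to 9 and 0.37 from 9 to 10. How much of the contrast goes with level was not tested. Within each array, the median deviation of the core genes from their own means minus that of the regulatory genes was -0.16, -0.09 and -0.15 in the controls and 0.03, 0.19 and -0.01 in the wounds. The wounds thus lay above the controls in this contrast, although wound 3 was close to 0. The order of core over regulatory genes was lost with the mean of all probe sets of a gene. The medians were then 0.370 for the core and 0.375 for the regulatory genes, and the beta genes at 0.33 lay below the ATPases at 0.46. That mean brings in dim probe sets, at levels of 2.08 to 3.67 for core genes, around the array median of 3.05. Those of regulatory genes lay at 2.41 to 3.17, apart from PSMD2 at 5.61. Whether such dim probe sets measure their genes was not tested. Without control 3 the regulatory median was 0.24 and that of the core 0.55. With 3 arrays per group an exact two-sided permutation test cannot give a p below 0.1, and none was computed.

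Arrays that carry the same replicate number deviated together, so the numbers were used to pair wound with control. The wound lay above the control in all 3 pairs for 29 of the 37 genes and below it in all 3 for 2, PSMD2 and PSME4. By comparison, 32.8% of all genes and 65.4% of the bright ones were higher in all 3 pairs, and 17.2% of all genes were lower. The alpha genes gave pair medians of 0.64, 0.73 and 0.67 for pairs 1 to 3, the beta genes 0.69, 0.53 and 0.45, and the ATPases 0.61, 0.34 and 0.41. The 3 pairs of the alpha genes were thus the most even, while pair 1 led among the beta genes and the ATPases. Non-ATPase genes gave 0.18, 0.20 and 0.36, and the activators and the inhibitor -0.11, 0.27 and 0.01.

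With the replicate number as a block in limma, 0 of the 37 genes passed an adjusted p of 0.05, and the 6 calls were lost. The block left the log2 differences as they were, but it leaves fewer degrees of freedom to estimate the variance. Standard errors moved both ways, from 0.068 to 0.040 for PSMA4 and from 0.059 to 0.073 for PSMB7. What cost the calls was not tested. The blocked adjusted p was 0.0856 for PSMA1, 0.0516 for PSMA4, 0.0777 for PSMB2, 0.084 for PSMB7, 0.082 for PSMC1 and 0.0794 for PSMC5. The lowest of all members was that of PSMB4, 0.0509, whose pair differences of 0.37, 0.34 and 0.40 were nearly equal. The blocked fit called 0.702% of all probe sets higher in wound. Quantile normalization of the arrays, which lowered the median of bright genes to 0.02 and that of the 13 core genes to 0.29, also left 0 calls among the 37. The count of 6 was 1 without control 1, 0 without control 2, 1 without control 3 and 2 without wound 1 or wound 2.

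**Figure D4:**
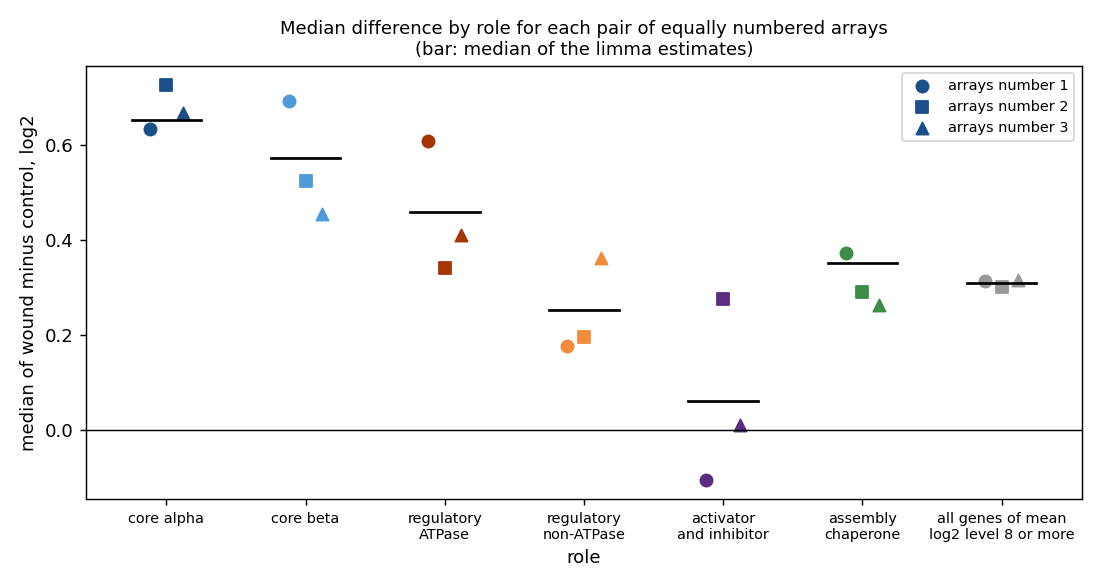
Median log2 difference of wound minus control over the genes of each role (vertical axis) in each of the 3 pairs of equal replicate number (symbols), with the median of the limma estimates as a bar and all genes of a mean log2 level of 8 or more on the right. The alpha genes lie between 0.64 and 0.73 in the 3 pairs, whereas the activators and the inhibitor lie on both sides of 0.

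Other genes of the ubiquitin and proteasome pathway were taken from a list of 36, of which 31 were on the array. Of these 31, 27 had a log2 difference above 0, and their median was 0.31. Genes at level 8 or more had the same median, but the list also holds genes below that level. All genes between levels 6 and 8 had a median of 0.15. By limma 6 of the 31 pathway genes were up-regulated, 0 were down-regulated and 25 did not pass the test. Of all genes 57% lay above 0 and 3.92% were called higher, and of genes at level 8 or more 78.8% and 13.4%. All wounds lay above all controls for 15 of the 31, against 20.8% of all genes and 50.6% of those at level 8 or more. They lay below all controls for 1, ECPAS, which differed by -0.38 (limma, adjusted p = 0.204). POMP, the maturation factor that is consumed when a core particle is completed, was at 9.55, 9.59 and 9.45 in the controls and at 10.52, 10.47 and 10.31 in the wounds. The groups lay far apart, and POMP rose by 0.90 ± 0.068 (fold 1.87, limma adjusted p = 0.0162), with a blocked adjusted p of 0.0417, the only gene of the list to pass both fits. UBE2L3, a ubiquitin-conjugating enzyme, rose by 0.87, from 9.48, 9.64 and 9.49 to 10.47, 10.37 and 10.38 (limma, adjusted p = 0.0147).

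UCHL5, a deubiquitinase that binds the regulatory particle, had values of 6.96, 6.93 and 6.88 in the controls and 7.42, 7.32 and 7.46 in the wounds, a rise of 0.48 with separate groups. FAF1 and FAF2, adaptors that bring ubiquitinated substrates to the segregase VCP, rose by 0.67 and 0.31. The controls of FAF1 were 6.61, 6.41 and 6.49 against wounds of 7.07, 7.23 and 7.22, and those of FAF2 were 6.21, 6.17 and 6.21 against 6.44, 6.50 and 6.56. NGLY1, which strips sugars from misfolded glycoproteins, rose by 0.28 from 6.74, 6.72 and 6.77 to 6.98, 7.10 and 6.99, with an adjusted p of 0.0499 by limma at the edge of the threshold. For UCHL5, FAF1, FAF2 and NGLY1, as for POMP and UBE2L3, every wound exceeded every control.

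NFE2L1, which in mammals drives proteasome genes when the proteasome is inhibited, gave 9.48, 9.60 and 9.58 in the controls and 9.39, 9.66 and 9.77 in the wounds. Its groups overlapped, with a difference of 0.06 (limma, adjusted p = 0.955). ADRM1, a ubiquitin receptor of the regulatory particle, gave 7.74, 7.77 and 7.61 against 7.996, 8.26 and 7.90, separate groups with a difference of 0.34 (limma, adjusted p = 0.236). SEM1, a small lid subunit annotated as SHFM1, was near the array median, at 3.31, 3.13 and 3.08 against 3.42, 3.14 and 3.14, and its groups overlapped.

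The position of the genes in the genome was not shared, since the 37 were found by gene ID in the RefSeq annotation on 20 chromosomes and 0 pairs were neighbours.

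Markers of some cell types lay higher and those of others lower in wound, but only the myeloid and epithelial lists held genes past the test. Of 14 myeloid markers measured, 14 had all wounds above all controls and 11 passed the test by limma, against 20.8% and 3.92% of all genes. The median log2 difference of the 14 was 2.15. All 14 stand in the study's own list of genes up-regulated in these same arrays. Their direction was thus known beforehand, and the counts add no independent support. With the replicate block 1 of the 11 calls, LY96, was kept. Their summed linear level ran from 2121 to 2847 in the controls and from 9727 to 11721 in the wounds. The labelled tissue was checked against epithelial markers, with EPCAM, KRT7 and CDH1 at mean log2 levels of 12.30, 11.98 and 10.61 in the controls. Their summed levels were 10403 to 10890 in controls and 15747 to 17482 in wounds. Of the 3, 1 passed the test by limma, EPCAM, at a difference of 0.73 (blocked adjusted p = 0.0541). EPCAM, under the symbol TACSTD1, also stands in the study's list of up-regulated genes, so its call adds no independent support. The 6 endothelial markers lay lower in every wound, with a median of -0.94, sums of 4049 to 4762 in controls and 1918 to 3284 in wounds, and 0 past the test.

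Fibroblast and smooth muscle markers had a median of -1.10 over 7 genes, and 0 of the 7 passed the test. The probe set of ACTA2 was near the array median, at means of 3.36 in controls and 2.88 in wounds. By immunohistology the study saw blood vessels, and myofibroblasts that stained for smooth muscle actin, invade the wounded area. How that staining relates to the RNA levels of these and the endothelial markers was not tested. All wounds lay below all controls for 3 of the 7, against 7.81% of all genes. For these markers wound 3 stood apart from the other wounds, with a mean log2 level of 9.08 against 7.94 and 7.51. It was close to the controls at 9.05 to 9.28. Without wound 3, 6 proteasome genes were called, of which 4 were among the 6 called with it. Of 5 T cell markers, CD3D and CD3E differed by 1.36 and 0.66 with all wounds above all controls and did not pass the test. CD3D also stands in the study's list of up-regulated genes, so its direction was known beforehand. CD8A, CD4 and LCK differed by 0.00, 0.01 and 0.00 at control levels of 3.08, 2.79 and 2.29. The 3 erythroid markers had a median of 0.02. The 5 cell cycle genes had a median of 0.40, and 0 of the 5 passed the test. All 5 lay above 0 and 3 had all wounds above all controls, against 57% and 20.8% of all genes. Fewer cells of a type and less RNA per cell cannot be told apart in such tissue samples, and the part of the cell types in the differences of the proteasome genes was not tested.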

How the data were processed

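The authors hybridized total RNA of 3 wound and 3 control CAM to Affymetrix chicken GeneChips and deposited log2 values per probe set, named as RMA in the submitters' processing notes with no version. The study's methods also name global scaling in GCOS, which gives linear signals, unlike the deposited log2 values. No columns were left unused (0). Of 38535 rows, 96 Affymetrix controls were left out. The platform annotation gave 27168 probe sets with 1 symbol, 177 with several and 11094 with none. Array medians ran from 3.01 to 3.05. Arrays carry no counts, so their number limits the precision.

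limma 3.58.1 in R 4.3.3 (lmFit, eBayes) was fitted to all 38439 probe sets, without a block as in the study's two-class design, and called at a Benjamini-Hochberg adjusted p under 0.05. The study used Significance Analysis of Microarrays, in which a rank-sum statistic and permuted sample labels give a false discovery rate over genes. For a single gene a rank-sum p cannot be small with 3 arrays against 3, and limma was used here instead. Once each group's mean was subtracted, wound and control arrays that share a number had a Pearson's r over probe sets of 0.58, 0.63 and 0.45. Every other wound and control pair had an r below 0. The subtraction itself makes these others negative on balance once the shared numbers are positive, so they add no support. All 3 values for shared numbers exceeded 0.1, so the numbers were taken as pairs, though no source used here says that a number marks 1 egg. The limma fit without a block was tested on simulated data. Those data had independent noise in each array, without the correlation of equal numbers seen here, so they do not bear on the block.

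The genes and the lists (pathway genes, myeloid, T cell, erythroid, endothelial, fibroblast and smooth muscle, epithelial and cell cycle markers) were chosen with earlier results of these data known. Values per array are given for genes past the test, the 3 highest and 3 lowest differences, the brightest probe set of each role, genes whose second probe set at or above the median level had the opposite sign, all activators and the inhibitor, the pathway genes past the test, and NFE2L1, POMP, ADRM1 and SEM1. Alternatives were quantile normalization, median centring, leaving out dim probe sets, the block, trend and robust variances, the mean of a gene's probe sets, an added fold threshold of 2 and leaving out each array. A fit of bright probe sets alone was added after seeing the data. Further steps used Python 3.11.15 with matplotlib 3.10.9, numpy 2.4.6 and pandas 2.3.3.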

Additional observations from a re-analysis of the deposited data

How the results depend on the processing

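Of the 37 proteasome genes, 6 were called higher in wound and 0 lower, and the count lower was 0 under every alternative run. Median centring left 6 and the mean of a gene's probe sets 5. The count higher was 0 after quantile normalization (lowest adjusted p of a member 0.116 by limma), 14 with dim probe sets left out, where fewer probe sets were tested, 0 with the replicate block, 1 (PSMA4) with trend and robust variances, 0 with a fold over 2, and 1 (PSMA4) among bright probe sets centred on their own median, an alternative chosen after seeing the data. Leaving out an array gave 0 to 6: 1 without control 1, 0 without control 2, 1 without control 3, 2 without wound 1, 2 without wound 2 and 6 without wound 3. The count thus fell without any array other than wound 3 and after quantile normalization. The causes of these falls, and of the rise with dim probe sets left out, were not tested.

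Of all probe sets, 785 were called higher and 117 lower. The split was 121 and 56 after quantile normalization, 1423 and 365 with dim probe sets left out, 270 and 45 with the replicate block and 208 and 50 with a fold over 2. The count higher was 374 with trend and robust and 118 among bright probe sets. Leaving out an array gave 22 to 790 higher and 10 to 421 lower. The pathway genes called fell from 6 to 1 after quantile normalization, 1 with the replicate block and 0 to 5 with an array left out.

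After quantile normalization the median log2 difference was 0.17 over all proteasome genes, 0.37 for alpha, 0.25 for beta, 0.13 for ATPase, 0.061 for non-ATPase and 0.14 for chaperone genes, and -0.13 for the activators and the inhibitor, while that of bright genes was 0.02. All 13 core and 8 of 13 regulatory genes stayed above 0. With the mean of a gene's probe sets the medians were 0.33 (all), 0.57 (alpha), 0.33 (beta), 0.46 (ATPase), 0.16 (non-ATPase) and 0.24 (chaperones), and those of core and regulatory genes 0.370 and 0.375, against 0.60 and 0.39 with the brightest probe set. With an array left out they ran from 0.37 to 0.46 (all), 0.57 to 0.74 (alpha), 0.51 to 0.62 (beta), 0.41 to 0.52 (ATPase), 0.21 to 0.31 (non-ATPase), -0.030 to 0.20 (activators and inhibitor; the lowest without wound 3) and 0.28 to 0.36 (chaperones), and the regulatory genes together had 0.24 without control 3. The block left the medians as they were.

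The sign turned for 9 of the 37 genes under at least 1 alternative, and 0 of these had passed the test: PSMB5 (-0.063 with the mean of its probe sets, -0.026 without wound 1 and up to 0.099 without wound 3), PSMD2 (0.093) and PSMG4 (-0.052) with the mean of their probe sets, PSMD7 (-0.054 after quantile normalization, -0.033 among bright probe sets) and PSMF1 (-0.13 and -0.22 under the same settings, -0.030 without wound 3). PSMC3, PSMD1, PSMD5 and PSMD6 also turned after quantile normalization (-0.019, -0.12, -0.032 and -0.0072), PSMD6 among bright probe sets (-0.059) and PSMD1 without control 3 (-0.0060).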
